A study of Mus musculus with 8 samples.

Results

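CHIR99021, an inhibitor of the kinase GSK3, was given to mouse small intestinal organoids with and without valproic acid (VPA), an inhibitor of histone deacetylases. The comparison described here is the CHIR99021 effect averaged over both VPA states. It sets the 4 arrays from organoids given CHIR99021 against the 4 arrays from organoids without it, and so uses all 8 arrays of the series. The question it addresses is which stem cell, secretory and absorptive genes GSK3 inhibition moved whether or not VPA was present. The organoids were wild type and came from 2 independently established lines, each cultured in Matrigel for 6 days in 4 conditions: CHIR99021 (3 µM) with VPA (1 mM), CHIR99021 alone, VPA alone, and control medium. Each line gave 1 array per condition, and a line is a culture derived once and then split, so the number of lines, not of arrays, is the number of independent sources. On every array Cy5 carried the sample and Cy3 carried control RNA of the same line, without a dye swap. The control arrays therefore held control RNA in both dyes, and their ratios leave out the spread between separate control cultures. The sex, age and strain of the source animals are not given in the labels. A value below is the log2 of Cy5 over Cy3 on an array, or the log2 difference between arrays with and without CHIR99021, as stated.

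GSK3 is part of a cytoplasmic complex that marks beta-catenin for degradation, and Wnt ligands act by silencing that complex. When GSK3 is inhibited, beta-catenin accumulates and activates genes together with TCF and LEF factors at DNA sites with the core CTTTGA. In the small intestine Wnt signalling is strongest at the crypt base, where it maintains Lgr5-positive stem cells and Paneth cells, and it declines towards the villus, where absorptive enterocytes and goblet cells mature. Intestinal organoids hold stem cells and these differentiated types in a closed epithelium with no mesenchyme.

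The 8 arrays were alike in how many spots they detected. In Cy5, 60.6% to 64.6% of spots per array exceeded background clearly by the scanner's flag, and 0 were saturated. All 10 epithelial marker genes were well above background on all 8 arrays. Of the markers of cells that an epithelial culture should lack, 2 of 10 for fibroblasts, 3 of 10 for immune cells, 1 of 6 for endothelium and 5 of 8 for smooth muscle and glia were well above background on all 8 arrays. The summed Cy5 brightness of the measured fibroblast markers was 813 to 992 with CHIR99021 and 895 to 1046 without it. Immune and endothelial sums did not exceed 1042. The sum for smooth muscle and glia was higher, 9203 to 10000 with CHIR99021 and 7287 to 10010 without it. For the epithelial markers it was 378900 to 475500 and 385700 to 537700. None of the tested markers of the 4 kinds of cell that the culture should lack was called. The CHIR99021+VPA array of line 1 had 17 spots with an uneven local background and the CHIR99021 array of line 1 had 34, against 0 on the other 6 arrays. The highest Cy3 background brightness was 76947 on the CHIR99021 array of line 1, against 35 to 117 on the others. On both slides each condition lay at the same slide position, so position and treatment cannot be told apart. In these whole-culture RNA samples, fewer cells of a type and less RNA per cell cannot be told apart either.

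With CHIR99021, 2667 of 19255 genes passed limma's moderated test at a Benjamini-Hochberg adjusted p of 0.05, which is 13.9% of the genes tested. Of these, 1182 rose (6.14%) and 1485 fell (7.71%). Falls were larger than rises: the median called rise was 0.35 and the median called fall was -0.51 on the log2 scale. Over 2-fold, 10 called genes rose (0.0519% of the genes tested) and 258 fell (1.34%), and over 4-fold 0 rose and 55 fell. The coefficient is the mean of 4 paired differences, 1 for each line in each VPA state. All 4 differences had the same direction for 2660 of the 2667 calls, which the test favours because it rests on their mean. Over all genes, 20.6% had 4 positive differences and 19.1% had 4 negative ones. All 4 arrays with CHIR99021 lay above all 4 without it for 4.01% of the genes tested and below them for 4.96%. The p-values rest on the spread that the fit leaves among arrays of 2 lines only, moderated by limma towards the spread of other genes.

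No gene's CHIR99021 effect was called as different between VPA states. In a fit with an interaction term, 0 genes were called by limma, 815 (4.23%) had an unadjusted p under 0.05 and the smallest adjusted p was 0.334. The effect within each VPA state was also tested, in a fit of all 8 arrays with that term. By this test 613 genes were called with VPA (114 rose, 499 fell) and 557 without it (78 rose, 479 fell). Both states called 299 genes, all in the same direction, which is 48.8% of the calls with VPA and 53.7% of those without it. The pooled test called 1898 genes that neither state called alone. Across genes, which are not independent replicates, the effect with VPA correlated with the effect without it (r = 0.75, rho = 0.64, n = 19255 genes, fitted on arrays of the same lines and slides). The 4 single pairs correlated with each other at r from 0.588 to 0.728.

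**Figure D1:**
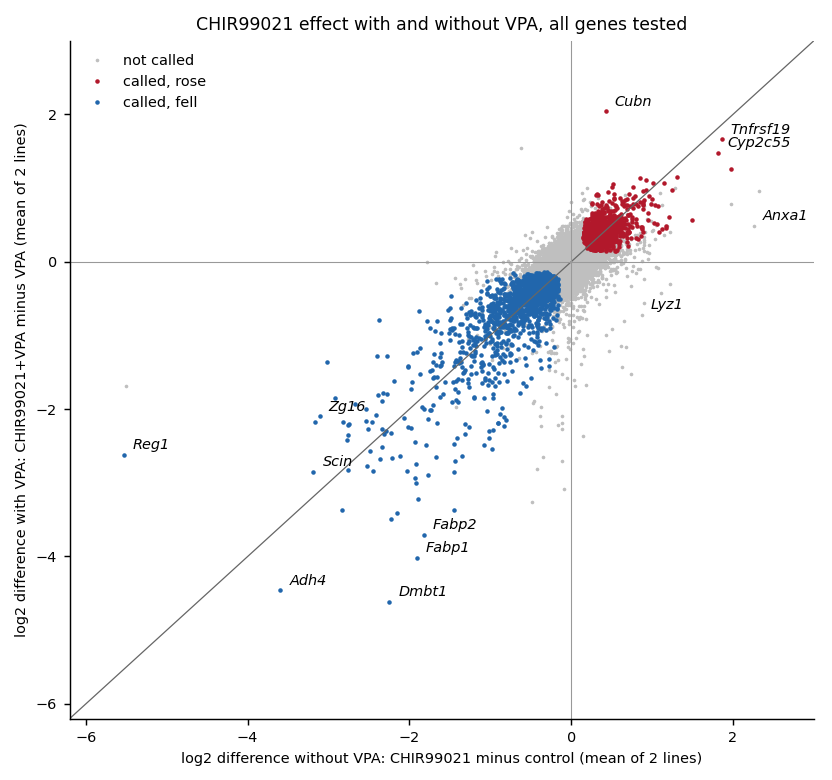
Each point is 1 of 19255 genes, with the log2 difference CHIR99021 minus control on the x axis and CHIR99021+VPA minus VPA on the y axis, each the mean of 2 lines. Red points rose and blue points fell in the pooled test, grey points were not called, and the diagonal marks equal effects. Most called genes lie along the diagonal, which the pooled test favours, and the falls reach further from 0 than the rises.

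The count of calls rested on single arrays to some extent. It was 1037 without the CHIR99021 array of line 2, 1048 without the VPA array of line 2, 1251 without the CHIR99021 array of line 1, 1275 without the CHIR99021+VPA array of line 2, and 1804 to 2297 without any of the other 4. Rises alone also dropped by over 1.5 times without the control array of line 1 (669) or the CHIR99021+VPA array of line 1 (749). With spots marked as outliers kept in the background model, which on the CHIR99021 array of line 1 included those 34 spots, 809 genes were called (311 rose, 498 fell). Without the line as a block, 1428 were called (517 rose, 911 fell). Of the 106 called genes named below, 65 stayed called whichever 1 of the 8 arrays was left out: 17 of 45 rises and 48 of 61 falls. With the background model fitted on all spots, 43 of the 106 calls ended.

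Wnt target genes and crypt stem cell genes had positive differences in 19 of 24 and 15 of 22 cases, against 52.1% of all genes. Most members of both lists did not pass the test. Of the 24 Wnt target and feedback genes tested, 6 rose, 0 fell and 18 did not pass, against 6.14% rising over all genes, and the list's median difference was 0.19, against 0.01 for all genes. Of the 22 crypt stem cell genes, 6 rose, 1 fell and 15 did not pass (median 0.28). In line 1 with VPA the medians of the Wnt target and stem cell lists were 0.03 and -0.05, against 0.28 to 0.32 and 0.26 to 0.32 in the other 3 pairs. Tnfrsf19, a receptor of the TNF family (Troy) that marks Wnt-active crypt cells and belongs to both lists, had the largest rise of the 19255 genes. Its log2 ratios were 3.53 and 3.74 with CHIR99021+VPA and 2.44 and 1.23 with CHIR99021 (lines 1 and 2), against 2.72 and 1.23 with VPA and -0.13 and 0.08 in control medium. Each CHIR99021 array lay above its partner, yet the VPA array of line 1 lay above both arrays given CHIR99021 alone. The difference was 1.76 ± 0.29 (SE, n = 4 against 4), or 3.39-fold, with an adjusted p of 0.0101 by limma. Tnfrsf19 was above background on all 4 arrays with CHIR99021 and on 3 of the 4 without it. Its call ended with the scanner's own ratio (adjusted p = 0.0567 by limma). It also ended with the background model fitted on all spots (adjusted p = 0.0705), and the direction was kept in both.

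Tnfrsf19 has 2 RefSeq promoter windows (250 bases before to 50 after a gene start, GRCm38.p6, minus strand). The one at chr14:61037938-61038237 is shown because it holds 1 match to the TCF/LEF letters searched, CTTTGAT or CTTTGAA on either strand; the other held no match. The match is in capitals and begins 202 bases before the gene start.
Tnfrsf19: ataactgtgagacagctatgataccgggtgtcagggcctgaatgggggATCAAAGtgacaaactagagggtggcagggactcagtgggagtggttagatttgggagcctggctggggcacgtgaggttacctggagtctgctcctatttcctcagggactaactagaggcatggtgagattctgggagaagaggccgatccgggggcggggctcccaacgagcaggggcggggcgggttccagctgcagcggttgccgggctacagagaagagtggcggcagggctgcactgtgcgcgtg
Such a match was found in 6 of the 26 windows (23.1%) of the 18 tested Wnt targets with a window, in 6.03% of the windows of genes that rose, in 5.97% of those of genes that fell and in 9.13% of those of genes that fell over 2-fold. The share was 6.51% in windows of all genes tested and 8.65% in all promoter windows of the table. Among the Wnt targets with a match, some gave 2 of the 6 windows, and most, Sp5 among them, were not called. No test of these shares was made, and a match is a description of the letters only.

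Feedback regulators of the pathway followed Tnfrsf19. Nkd1, which binds Dishevelled and dampens Wnt signalling, had ratios of 1.56 and 1.87 with CHIR99021+VPA and 1.44 and 1.41 with CHIR99021, against 1.39 and 1.11 with VPA and 0.19 and 0.31 in control medium. The 4 arrays with CHIR99021 lay above the 4 without it, with the smallest gap in line 1 with VPA, and the difference was 0.82 ± 0.16 (adjusted p = 0.0171), with a second probe at 0.25. Axin2, a scaffold of the beta-catenin degradation complex that Wnt signalling induces, had ratios of 0.33 and 0.46 with CHIR99021+VPA and 0.88 and 0.62 with CHIR99021, against 0.36 and -0.11 with VPA and 0.06 and 0.06 in control medium. Axin2 rose by 0.48 ± 0.12 (adjusted p = 0.0423), although its pair in line 1 with VPA did not differ in that direction (-0.03) and the Cy5 channel read alone gave -0.07 (adjusted p = 0.872). Rnf43, a ubiquitin ligase that removes Frizzled receptors, rose by 0.39 ± 0.08, and the transcription factor Tcf7, a nuclear partner of beta-catenin, by 0.67 ± 0.09 (adjusted p = 0.00527). The Rnf43 call ended in the Cy5 channel read alone (0.23, adjusted p = 0.377). That of Tcf7 ended with the background model fitted on all spots (0.48, adjusted p = 0.136). For Tcf7 all 4 paired differences lay between 0.54 and 0.85. Sp5, a Wnt-induced repressor, differed by 0.33 ± 0.30 (adjusted p = 0.529), and Cd44, an adhesion receptor, by 0.37 ± 0.14 (adjusted p = 0.12).

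Lgr5, the R-spondin receptor that defines crypt base stem cells, had ratios of 0.37 and 1.02 with CHIR99021+VPA and 1.28 and 0.74 with CHIR99021, against 0.24 and -0.52 with VPA and 0.36 and -0.13 in control medium. The groups did not overlap, but the lowest array with CHIR99021 (0.37) and the highest without it (0.36), both of line 1, were close. Lgr5 rose by 0.87 ± 0.20, or 1.82-fold (adjusted p = 0.0316). Smaller rises were seen for Hopx (0.50 ± 0.06), a homeodomain protein of reserve stem cells, for Mex3a (0.50 ± 0.08), an RNA-binding protein of slowly cycling Lgr5-positive cells, and for Lrig1 (0.49 ± 0.10), a restrainer of ErbB receptors. Ascl2, the transcription factor that sets stem cell fate downstream of Wnt, differed by 0.10 ± 0.08 (adjusted p = 0.449) and was not called. Scn2b, a sodium channel subunit, was the list member that fell, by 0.85 ± 0.14 (adjusted p = 0.00913).

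The calls of Tnfrsf19, Tcf7, Hopx, Mex3a and Scn2b held whichever array was left out. Those of Lgr5, Axin2 and Rnf43 ended without any 1 of 6 arrays (highest adjusted p = 0.112, 0.132 and 0.0888), namely all but the line 1 arrays of VPA and CHIR99021+VPA. That of Nkd1 ended without any 1 of 4 (highest 0.0665; either CHIR99021 array, or the line 2 array of VPA or CHIR99021+VPA), and that of Lrig1 without CHIR99021 line 1 or VPA line 2 (highest 0.06).

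**Figure D2:**
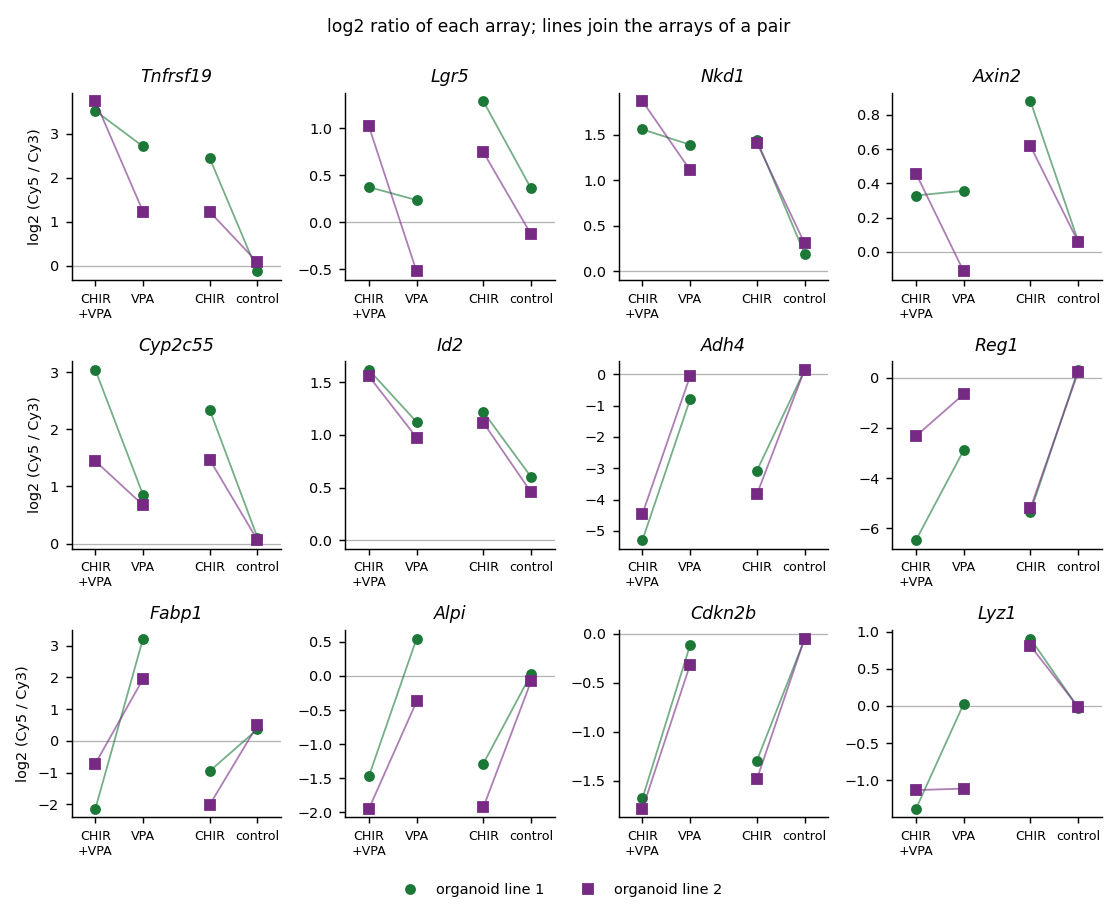
Each panel plots the log2 Cy5/Cy3 ratio of a gene on the 8 arrays, with CHIR99021+VPA left of VPA and CHIR99021 (CHIR) left of control; circles are organoid line 1, squares are line 2, and lines join the arrays of a pair. Each axis has its own range. The pairs slope down from CHIR99021 for Tnfrsf19, Nkd1, Cyp2c55 and Id2 and up for Adh4, Reg1, Fabp1, Alpi and Cdkn2b, while the Lyz1 pairs differ between VPA states.

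Few components that transmit the signal were called. Of 25 genes of GSK3, the degradation complex and beta-catenin partners, 2 rose and 0 fell (median 0.01), which is close to the 6.14% of all genes. These were Dvl2 (0.45 ± 0.12), a Dishevelled protein that carries the signal from the receptor, and Csnk1e (0.37 ± 0.07), a casein kinase that acts on it. The Csnk1e call ended with the mean of its probes (0.21, adjusted p = 0.0570), the second of which was not above background on any array. Gsk3b, which encodes a target of CHIR99021, differed by 0.18 ± 0.08 (adjusted p = 0.184). Of 23 Wnt ligands and receptors, 5 rose (21.7%) and 1 fell (4.35%), against 6.14% and 7.71% over all genes. Wls, which carries Wnt ligands to the cell surface, rose by 0.56 ± 0.11, Porcn, which adds their lipid anchor, by 0.30 ± 0.06, and the receptor Fzd6 by 0.32 ± 0.07.

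The receptor Fzd5 moved the other way. Its ratios were -1.18 and -0.93 with CHIR99021+VPA and -0.61 and -0.90 with CHIR99021, against -0.44 and -0.38 with VPA and 0.10 and -0.25 in control medium. All 4 arrays with CHIR99021 lay below all 4 without it, and Fzd5 fell by 0.66 ± 0.10 (adjusted p = 0.0085), with a second probe at -0.16. Among 12 Eph receptors and ephrins, which sort cells along the crypt axis, Epha2 rose by 0.70 ± 0.18, while the ligand Efnb2 fell by 0.87 ± 0.15 and the receptor Epha1 by 0.74 ± 0.13. In this list 8.33% rose and 16.7% fell, against 6.14% and 7.71% over all genes. Ephb2, a receptor graded from the crypt base, differed by 0.27 ± 0.09 (adjusted p = 0.0839). The calls of Fzd5, Efnb2 and Epha1 held without any 1 array, whereas those of Dvl2, Fzd6, Epha2, Porcn, Csnk1e and Wls ended without at least 2 arrays each (highest adjusted p = 0.146, 0.083, 0.127, 0.0754, 0.068 and 0.0666).

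Genes outside these pathways made up most of the largest rises. Cyp2c55, a cytochrome P450 of the intestinal epithelium, had ratios of 3.04 and 1.44 with CHIR99021+VPA and 2.34 and 1.47 with CHIR99021, against 0.85 and 0.67 with VPA and 0.11 and 0.06 in control medium. All arrays with CHIR99021 lay above all without it, and Cyp2c55 rose by 1.65 ± 0.24, or 3.14-fold (adjusted p = 0.00638). Slc14a1, a urea transporter, had ratios of 0.48 and 1.99 and 0.95 and 1.92 in the same order of CHIR99021 arrays, against -0.06 and 0.24 with VPA and 0.02 and 0.25 in control medium, and rose by 1.23 ± 0.20. It was above background on all 4 arrays with CHIR99021 and on 2 of the 4 without it, and its difference was 2.32 by the scanner's own ratio and 1.00 (adjusted p = 0.0838) with the background model fitted on all spots. Its rise was larger in line 2 than in line 1 in both VPA states. Cubn, an endocytic receptor for the vitamin B12 carrier, rose by 1.24 ± 0.32 (adjusted p = 0.0426), with paired differences of 1.86 and 2.23 with VPA and 0.25 and 0.60 without it (interaction not called).

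Further single genes rose. Slc30a2, a zinc transporter, rose by 1.11 ± 0.20, Ass1, the argininosuccinate synthase of arginine synthesis, by 1.11 ± 0.16, and Wwtr1, the YAP paralog TAZ, by 1.04 ± 0.15. Wwtr1 was above background on 3 of the 4 arrays without CHIR99021, and its difference was 2.41 by the scanner's own ratio and 0.66 (adjusted p = 0.117) with the background model fitted on all spots. Ly6d, a surface protein, rose by 1.03 ± 0.20 and the galactose-binding lectin Lgals1 by 1.01 ± 0.22. Ctsl, a lysosomal protease, rose by 0.91 ± 0.12 (adjusted p = 0.00402), with all 4 paired differences between 0.63 and 1.09. The actin regulator Evl rose by 0.91 ± 0.17, the chloride channel family member Clic4 by 0.90 ± 0.11 and Marcksl1, which binds actin at the membrane, by 0.84 ± 0.13. A further Clic4 probe, not above background on any array, read 0.20. The cytohesin gene Cyth4 and the spectrin gene Sptbn4 rose by 0.99 ± 0.14 and 0.95 ± 0.15, but 3 further Cyth4 probes read -0.05, -0.04 and 0.10. Id2, an inhibitor of basic helix-loop-helix factors and a target of BMP signalling, rose by 0.59 ± 0.06 with very even paired differences (0.49 and 0.58 with VPA, 0.62 and 0.66 without; adjusted p = 0.00152). It was 1 of 3 risers and 0 fallers among 19 BMP pathway genes, of which 15.8% rose, against 6.14% over all genes. The calls of Cubn, Lgals1, Ly6d, Evl and Slc30a2 ended without at least 1 array (5, 4, 4, 2 and 1 of the 8 arrays; highest adjusted p = 0.125, 0.0873, 0.0649, 0.0566 and 0.0517).

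Genes of the absorptive enterocyte fell broadly. Of 33 brush border enzymes, transporters and structural genes, 0 rose, 22 fell and 11 did not pass, against 7.71% falling over all genes, and 32 of the 33 had negative values (median -0.85). Slc6a19, the main transporter of neutral amino acids, had ratios of -3.30 and -3.19 with CHIR99021+VPA and -1.92 and -2.71 with CHIR99021, against -0.72 and -1.08 with VPA and 0.39 and 0.51 in control medium. The groups did not overlap, and Slc6a19 fell by 2.55 ± 0.16, or 5.87-fold (adjusted p = 0.00051). Enpep, the aminopeptidase A of the brush border, fell by 2.10 ± 0.17, and Treh, the trehalase, by 1.61 ± 0.10 (adjusted p = 0.00051), with Treh differences between -1.36 and -1.80 in the 4 pairs.

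Alpi, the alkaline phosphatase of mature enterocytes, had ratios of -1.47 and -1.95 with CHIR99021+VPA and -1.29 and -1.93 with CHIR99021, against 0.55 and -0.37 with VPA and 0.02 and -0.08 in control medium. It fell by 1.69 ± 0.13 (adjusted p = 0.000747), while a second probe read -0.37. Krt20, a keratin of differentiated villus cells, had ratios of -0.40 and -1.74 and -1.91 and -2.32 on the same arrays, against 0.85 and 0.46 with VPA and -0.16 and -0.12 in control medium. The smallest fall was in line 1 with VPA, where the ratio with CHIR99021 was still below every ratio without it, and Krt20 fell by 1.85 ± 0.19 (adjusted p = 0.00192). Vil1, the actin bundler villin, fell by only 0.52 ± 0.13 (adjusted p = 0.039), a call that ended without any 1 of 7 arrays (highest adjusted p = 0.128; it held without CHIR99021+VPA line 2). The calls of Slc6a19, Enpep, Treh, Alpi and Krt20 held without any 1 array.

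HNF4 factors are nuclear receptors that activate enterocyte genes, and their binding motif CAAAGTCCA was searched on both strands of the promoter windows. It was found in 3 of 43 windows (6.98%) of the 30 tested brush border genes with a window, those of Alpi, Treh and Slc3a1, the last encoding a subunit of the cystine and basic amino acid transporter. Among genes called over 2-fold lower, 10 of 241 windows (4.15%) held the motif, and among all genes that fell 18 of 1341 (1.34%), against 2 of 928 windows (0.216%) of genes that rose and 71 of 14122 windows (0.503%) of all genes tested. The windows are shown in full, with the motif in capitals, because the letters were found more often in windows of genes that fell over 2-fold than in windows of all genes tested. They span chr1:87101557-87101856 on the minus strand for Alpi, chr9:44672983-44673282 on the plus strand for Treh and chr17:85028097-85028396 on the plus strand for Slc3a1 (RefSeq, GRCm38.p6), and the match begins 19, 71 and 39 bases before the gene start.
Alpi: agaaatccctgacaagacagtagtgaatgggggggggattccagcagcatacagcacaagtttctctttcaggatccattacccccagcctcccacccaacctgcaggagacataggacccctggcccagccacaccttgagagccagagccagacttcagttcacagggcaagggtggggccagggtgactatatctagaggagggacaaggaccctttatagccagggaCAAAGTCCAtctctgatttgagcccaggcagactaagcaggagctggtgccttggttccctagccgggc
Treh: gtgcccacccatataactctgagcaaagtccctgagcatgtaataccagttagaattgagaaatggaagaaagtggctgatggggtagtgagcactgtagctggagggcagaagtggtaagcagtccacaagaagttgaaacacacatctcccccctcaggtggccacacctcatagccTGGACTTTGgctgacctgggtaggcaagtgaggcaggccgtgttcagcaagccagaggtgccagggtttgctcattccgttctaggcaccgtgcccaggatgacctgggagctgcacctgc
Slc3a1: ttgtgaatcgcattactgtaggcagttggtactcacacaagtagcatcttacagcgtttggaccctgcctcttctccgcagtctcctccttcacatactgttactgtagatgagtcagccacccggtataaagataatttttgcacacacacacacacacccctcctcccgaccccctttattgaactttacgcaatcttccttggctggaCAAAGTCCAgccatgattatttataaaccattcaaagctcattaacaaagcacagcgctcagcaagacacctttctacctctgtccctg
No test of these frequencies was made, and a match in a window does not show that a factor binds there.

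Fat absorption was the list with the highest share of falls. Of 17 tested genes, 15 fell (88.2%), 1 rose and 1 did not pass (median -1.03), against 7.71% falling over all genes. Fabp1, a fatty acid binding protein of enterocytes, had ratios of -2.14 and -0.72 with CHIR99021+VPA and -0.95 and -2.01 with CHIR99021, against 3.22 and 1.95 with VPA and 0.36 and 0.49 in control medium. All arrays with CHIR99021 lay below all without it, the widest gap being in line 1 with VPA, and Fabp1 fell by 2.96 ± 0.55, or 7.79-fold (adjusted p = 0.0145). Its partner Fabp2 fell by 2.76 ± 0.45 (adjusted p = 0.00931). Paired differences of Fabp2 were -4.63 and -2.78 with VPA and -2.12 and -1.53 without it, and the interaction was not called.

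Enzymes that rebuild and package triglycerides fell with much smaller spread. Mogat2, which re-esterifies absorbed monoglyceride, had ratios of -0.35 and -0.91 with CHIR99021+VPA and -1.38 and -1.59 with CHIR99021, against 0.95 and 0.60 with VPA and 0.13 and 0.25 in control medium. The groups did not overlap, and Mogat2 fell by 1.54 ± 0.12 (adjusted p = 0.000747). Dgat1 and Dgat2, which complete triglyceride synthesis, fell by 1.12 ± 0.09 and 0.88 ± 0.07, and Mttp, which loads lipid onto apolipoprotein B, by 1.03 ± 0.07 (adjusted p = 0.000537). The Mttp differences in the 4 pairs lay between -0.86 and -1.19. In this list the call of Fabp1 ended without CHIR99021 line 2 or VPA line 2 (highest adjusted p = 0.0578), and the other calls named held without any 1 array.

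The lists of oxidative and retinoid metabolism held falls and no rises. In the list of fatty acid oxidation and PPAR response, 19 of 35 genes fell (54.3%), 0 rose and 16 did not pass. Of these 35 genes, 34 had negative values (median -0.63). Over all genes 7.71% fell and 47.9% had negative values. Acaa2, a thiolase of mitochondrial beta-oxidation, fell by 0.86 ± 0.09, and Crat, a carnitine acetyltransferase, by 1.03 ± 0.10 (adjusted p = 0.00152). Of 23 genes of retinol and alcohol metabolism, 10 fell (43.5%), 0 rose and 13 did not pass (median -0.26). Adh4, an alcohol dehydrogenase that also oxidises retinol, had ratios of -5.30 and -4.45 with CHIR99021+VPA and -3.08 and -3.83 with CHIR99021, against -0.79 and -0.05 with VPA and 0.14 and 0.14 in control medium. Every array with CHIR99021 lay over 2 log2 units below every array without it, and Adh4 fell by 4.03 ± 0.28, or 16.3-fold (adjusted p = 0.00062). Adh1 fell by 2.60 ± 0.20, Adh6a by 1.21 ± 0.11 and the retinal dehydrogenase Aldh1a1 by 2.53 ± 0.16 (adjusted p = 0.00051).

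Transcription factors of the absorptive programme were among the falls. Of 27 factors of intestinal identity and differentiation, 8 fell (29.6%) and 1 rose (median -0.12), against 7.71% falling over all genes. Creb3l3, a membrane-bound activator of lipid genes, had ratios of -2.12 and -1.44 with CHIR99021+VPA and -1.98 and -2.39 with CHIR99021, against 0.25 and 0.43 with VPA and -0.11 and -0.12 in control medium. It fell by 2.10 ± 0.15, or 4.27-fold (adjusted p = 0.000655), with no overlap between the groups. The nuclear receptor Ppara fell by 1.13 ± 0.11 and the xenobiotic receptor Nr1i3 by 1.26 ± 0.08 (adjusted p = 0.00051). Hnf4g, an HNF4 paralog of the intestinal epithelium, fell by 1.23 ± 0.11 (adjusted p = 0.00136), with a dimmer probe, above background on 4 arrays, at -0.25. Cdx2, the homeobox factor that specifies intestine, was the 1 that rose, by 0.46 ± 0.11 (adjusted p = 0.0341), a call that ended without any 1 of 6 arrays (highest adjusted p = 0.104; it held without control line 2 or CHIR99021 line 2).

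Antimicrobial and secreted proteins gave some of the largest falls. Of 12 tested genes of antimicrobial defence and inflammation, 6 fell (50%) and 0 rose (median -1.10), against 7.71% falling over all genes. Reg1, a secreted lectin-like protein, had ratios of -6.47 and -2.33 with CHIR99021+VPA and -5.35 and -5.20 with CHIR99021, against -2.89 and -0.66 with VPA and 0.30 and 0.22 in control medium. The CHIR99021+VPA array of line 2 lay above the VPA array of line 1, so the groups overlapped, although each pair differed in the same direction. Reg1 fell by 4.08 ± 0.82, or 16.9-fold (adjusted p = 0.0187), a call that ended without any 1 of 4 arrays (both CHIR99021 arrays, CHIR99021+VPA line 1 and VPA line 2; highest adjusted p = 0.0594).

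Reg3a, a bactericidal lectin, fell more evenly. Its ratios were -3.49 and -2.28 with CHIR99021+VPA and -2.53 and -2.69 with CHIR99021, against 0.66 and 0.31 with VPA and 0.21 and 0.25 in control medium. The groups lay over 2 log2 units apart, and Reg3a fell by 3.10 ± 0.25 (adjusted p = 0.000841); Reg genes form a multigene family whose probes may share signal. Dmbt1, a scavenger receptor that binds bacteria, fell by 3.43 ± 0.51, or 10.8-fold, with differences of -5.18 and -4.04 with VPA and -2.62 and -1.89 without it (interaction not called).

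Further single genes fell over 2-fold. Scin, an actin-severing protein, had ratios of -2.70 and -1.86 with CHIR99021+VPA and -3.70 and -3.30 with CHIR99021, against 0.19 and 0.95 with VPA and -0.35 and -0.27 in control medium. It fell by 3.02 ± 0.14 (adjusted p = 0.00026), with the 4 paired differences between -2.81 and -3.35. Ces1f, a carboxylesterase, fell by 2.86 ± 0.34 and Ugt2b5, a glucuronosyltransferase, by 2.79 ± 0.16 (adjusted p = 0.000397), and both belong to families of closely similar genes. Spink1, a secreted trypsin inhibitor, fell by 2.65 ± 0.54 and the complement-factor-H related Cfhr2 by 2.67 ± 0.30, with a second Cfhr2 probe at -1.87. Dnah2, a dynein heavy chain, fell by 2.65 ± 0.25 by its brighter probe while another, above background on 4 arrays, read -0.09. The Spink1 call ended without any 1 of 4 arrays (highest adjusted p = 0.0746; control line 1, both VPA arrays and CHIR99021 line 2).

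Goblet, tuft and enteroendocrine cells each had a list. Of 25 goblet cell genes, 11 fell (44%) and 1 rose (4%), with a median of -0.72. Of 21 tuft cell genes, 4 fell (19.05%) and 0 rose (median -0.47), and of 23 enteroendocrine genes 0 rose and 0 fell (median 0.01). Over all genes 7.71% fell and 6.14% rose. Ccl6, a chemokine gene on the goblet list, had ratios of -5.46 and -4.03 with CHIR99021+VPA and -2.56 and -2.20 with CHIR99021, against -3.34 and -2.15 with VPA and 0.08 and 0.25 in control medium. The VPA ratios lay as low as those with CHIR99021 alone, and the lowest 2 arrays had both compounds; with VPA state in the fit Ccl6 fell by 2.27 ± 0.22, or 4.82-fold (adjusted p = 0.00154). The tissue kallikrein Klk1 fell by 1.72 ± 0.17, the mucin glycosyltransferase Gcnt3 by 0.83 ± 0.09 and Fcgbp, a mucus protein, by 1.08 ± 0.12 (adjusted p = 0.00242). Zg16, a lectin of goblet cell granules, fell by 2.60 ± 0.49, with differences of -0.60 and -3.60 with VPA and -3.15 and -3.07 without it. Reg4 fell by 1.38 ± 0.15 (adjusted p = 0.00216). Spdef, the factor that drives goblet and Paneth maturation, fell by 0.74 ± 0.17 (adjusted p = 0.0291). The Zg16 call ended without any 1 of 3 arrays (all of line 2 but control; highest adjusted p = 0.0582) and that of Spdef without any 1 of 5 (highest 0.092).

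Among tuft cell genes, the taste channel Trpm5 fell by 0.79 ± 0.13 (adjusted p = 0.0095), Lrmp by 0.67 ± 0.09 and the G protein regulator Rgs13 by 1.05 ± 0.25. The tuft marker kinase Dclk1 had ratios of -2.55 and -0.19 with CHIR99021+VPA and -1.34 and 0.0095 with CHIR99021, against -1.99 and 0.04 with VPA and 0.05 and 0.17 in control medium. The low ratios were all in line 1, and the difference of -0.58 ± 0.32 did not pass (adjusted p = 0.272). The enteroendocrine granule proteins Chga and Chgb differed by -0.44 ± 0.30 (adjusted p = 0.374) and -0.78 ± 0.29 (adjusted p = 0.114). The Rgs13 call ended without any 1 of 6 arrays (highest adjusted p = 0.112).

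Of 19 Paneth cell genes, 2 rose, 1 fell and 16 did not pass (median -0.10), and the list's median was -1.40 in line 1 with VPA against -0.12 to 0.09 in the other 3 pairs. Lyz1, the lysozyme of Paneth cells, had ratios of -1.38 and -1.13 with CHIR99021+VPA and 0.91 and 0.81 with CHIR99021, against 0.03 and -1.11 with VPA and -0.02 and -0.01 in control medium. Both arrays given CHIR99021 alone were the highest of the 8 and both given CHIR99021+VPA were the lowest, so the pooled difference was 0.08 ± 0.35 (adjusted p = 0.911) and lies between the differences of the VPA states. Mptx1, a pentraxin of Paneth cells, fell by 2.46 ± 0.47 (adjusted p = 0.0163), with differences of -3.32 and -2.69 with VPA and -1.45 and -2.39 without it. The risers were the stress-induced gene Nupr1 (0.70 ± 0.12) and the surface glycoprotein Cd24a (0.44 ± 0.11). Notch signalling, which holds cells out of secretory fates, gave 2 rises (9.09%) and 3 falls (13.6%) among 22 genes, against 6.14% and 7.71% over all genes. The receptor Notch2 rose by 0.33 ± 0.07, but a second probe, above background on all 8 arrays, read 0.0069, and the mean of its probes ended the call (0.097, adjusted p = 0.340). The ligand Dll1 fell by 0.30 ± 0.08 and the feedback gene Nrarp fell by 0.33 ± 0.07. Hes1 differed by -0.02 ± 0.08 (adjusted p = 0.918) and was not called. Atoh1, the factor that commits cells to secretion, differed by -0.31 ± 0.10 (adjusted p = 0.0791). All calls named in these sentences ended without at least 1 array, those of Dll1, Cd24a and Notch2 without 7, 6 and 5 of the 8 (highest adjusted p = 0.134, 0.119 and 0.071) and those of Nrarp, Mptx1 and Nupr1 without 3, 2 and 1 (highest 0.0648, 0.062 and 0.0552).

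Proliferation genes were slightly higher as lists, although most members did not pass the test. Of 34 genes of DNA replication and G1/S, 6 rose (17.65%) and 0 fell, with 32 values above 0 (median 0.19). Of 32 genes of mitosis and G2/M, 5 rose (15.62%) and 0 fell, with 31 values above 0 (median 0.19). Over all genes 6.14% rose and 52.1% of values were above 0. In line 1 with VPA these medians were -0.04 and -0.14, against 0.21 to 0.36 in the other 3 pairs. The flap endonuclease Fen1 of replication rose by 0.46 ± 0.09, the maintenance methyltransferase Dnmt1 by 0.37 ± 0.08, the mitotic checkpoint kinase Bub1b by 0.47 ± 0.10, the cyclin-dependent kinase Cdk1 by 0.35 ± 0.08 and the topoisomerase Top2a by 0.55 ± 0.11. A second Cdk1 probe, above background on all 8 arrays, read -0.03, and the mean of both probes ended the call (0.16, adjusted p = 0.215). Mki67, the proliferation antigen, differed by 0.32 ± 0.13 (adjusted p = 0.156). Calls of all 5 ended without at least 3 of the 8 arrays (highest adjusted p = 0.0601, 0.0776, 0.0824, 0.103 and 0.0649).

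Cdkn2b, which encodes the inhibitor p15 of the G1 kinases CDK4 and CDK6, had very even differences in the 4 pairs. Its ratios were -1.68 and -1.78 with CHIR99021+VPA and -1.29 and -1.48 with CHIR99021, against -0.12 and -0.32 with VPA and -0.06 and -0.05 in control medium. The groups were about 1 log2 unit apart at their nearest arrays, and Cdkn2b fell by 1.42 ± 0.07, or 2.68-fold (adjusted p = 0.00026). Of the 6 other inhibitors tested, Cdkn2c rose by 0.23 ± 0.06 (adjusted p = 0.0425), a call lost without any 1 of the 8 arrays (highest adjusted p = 0.123), and the others did not pass.

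Ribosome biogenesis and Myc genes had the highest share of rises among the lists. Of 28 genes, 11 rose (39.3%), 1 fell and 16 did not pass, against 6.14% rising over all genes. The list's median was 0.23, and 0.16 to 0.29 in the 4 pairs. Npm1, a nucleolar chaperone of ribosome assembly, had ratios of 0.17 and 0.19 with CHIR99021+VPA and 0.86 and 0.91 with CHIR99021, against -0.38 and -0.48 with VPA and 0.22 and 0.38 in control medium. In each pair the array with CHIR99021 was higher, by 0.53 to 0.66, although the 2 groups overlapped because ratios were lower with VPA. Npm1 rose by 0.60 ± 0.06 (adjusted p = 0.00179), nucleolin, Ncl, by 0.45 ± 0.07 and the assembly factor Rrs1 by 0.51 ± 0.09. Further Ncl probes, all above background on the 8 arrays, read 0.54, 0.04 and 0.08. Mycn was the member that fell, by 0.43 ± 0.07 (adjusted p = 0.00721), but another probe, above background on 6 arrays, read 0.04, and the mean of probes ended the call (-0.20, adjusted p = 0.0577). Of these, Npm1, Ncl and Mycn held without any 1 array, whereas leaving out CHIR99021 line 2 ended the Rrs1 call (adjusted p = 0.0513).

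**Figure D3:**
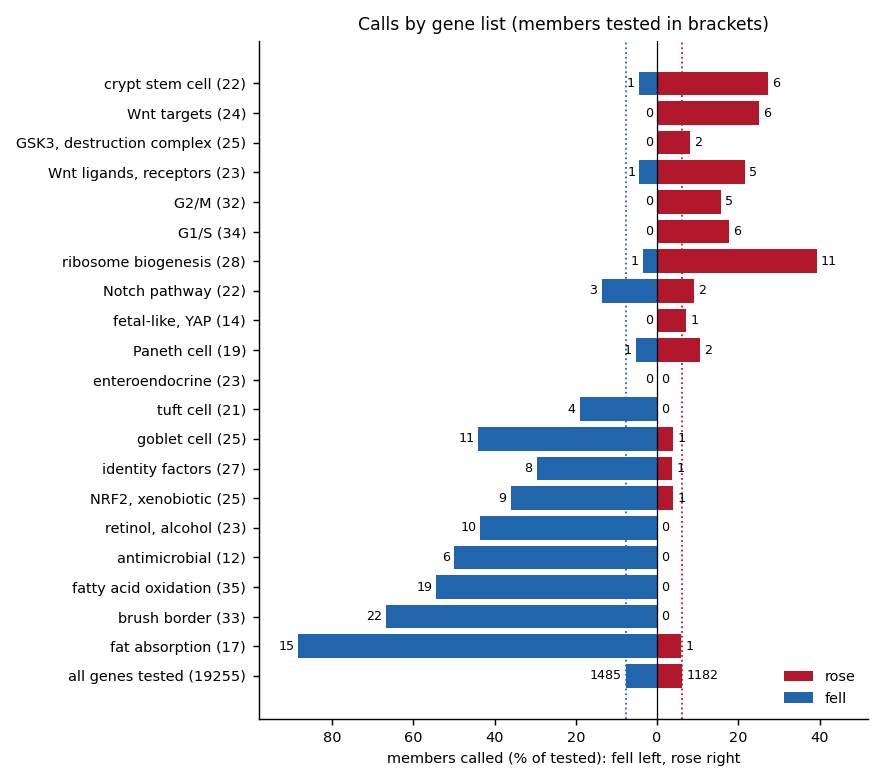
Bars give the share of tested members of a gene list that rose (red, right) or fell (blue, left) with CHIR99021, in percent, with the number of genes at the end of each bar. Dotted lines mark the shares over all 19255 genes, 6.14% and 7.71%. The widest falls are in fat absorption (15 of 17) and the brush border (22 of 33), and the widest rises in ribosome biogenesis (11 of 28).

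**Figure D4:**
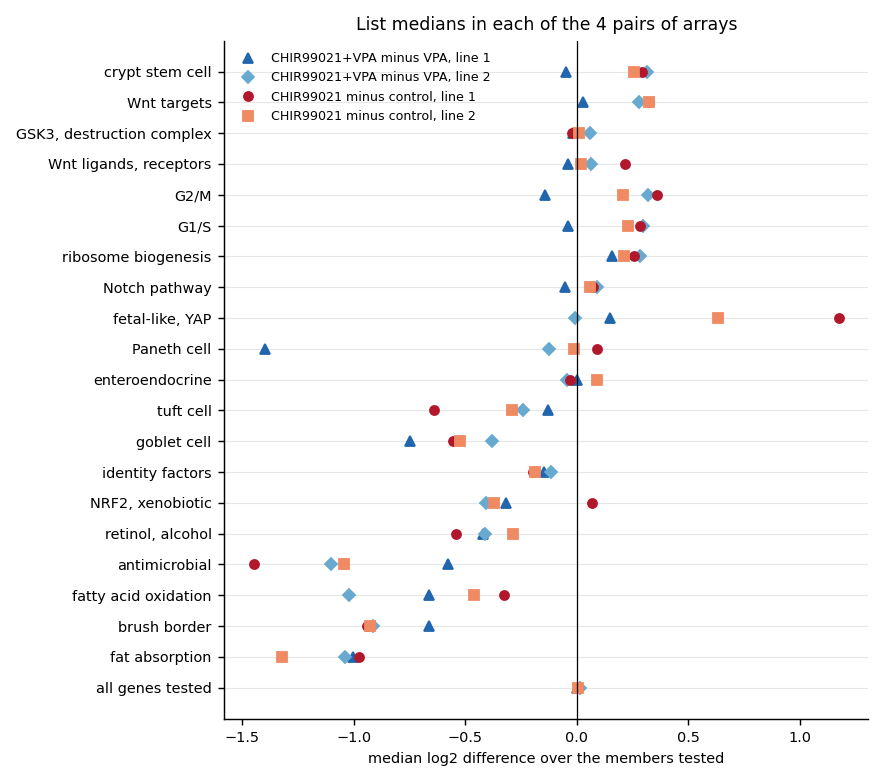
Points give the median log2 difference over the tested members of each list in the 4 pairs of arrays, CHIR99021+VPA minus VPA (blue) and CHIR99021 minus control (red), for lines 1 and 2. Brush border and fat absorption medians lie below -0.6 in all 4 pairs, whereas stem cell, G2/M and G1/S medians are below 0 in line 1 with VPA and above 0 in the other 3.

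Carbohydrate, arginine and stress genes held further single changes. Of 13 genes of arginine, urea cycle and polyamine metabolism, 3 rose (23.1%), among them Ass1, and 2 fell (15.4%). Over all genes 6.14% rose and 7.71% fell. Arg2, the mitochondrial arginase, had ratios of -3.17 and -3.03 with CHIR99021+VPA and -3.18 and -2.76 with CHIR99021, against -1.37 and -0.48 with VPA and -0.18 and -0.13 in control medium. The groups did not overlap, and Arg2 fell by 2.49 ± 0.17, or 5.64-fold (adjusted p = 0.000586). Of 29 glycolysis and hypoxia genes, 5 fell (17.2%) and 0 rose although the median was 0.32. This median was 0.83 in line 1 without VPA against -0.11 to 0.21 in the other 3 pairs. The falls named here are enzymes of fructose use and gluconeogenesis: Khk, the fructokinase, fell by 1.21 ± 0.15 and Fbp1, the fructose bisphosphatase, by 1.25 ± 0.25. The Fbp1 call ended without CHIR99021 line 2 or VPA line 2 (highest adjusted p = 0.0704).

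Of 25 NRF2 and xenobiotic genes, 9 fell (36%) and 1 rose (4%), with a median of -0.17, against 7.71% and 6.14% over all genes. The quinone reductase Nqo1 fell by 0.87 ± 0.14 and the metallothionein Mt2 by 0.95 ± 0.14 (adjusted p = 0.00702). Of 23 genes of the unfolded protein response and secretion, 6 fell (26.1%) and 0 rose, with the chaperone partner Dnajb9 at -0.65 ± 0.06 (adjusted p = 0.00154). Of 24 p53 targets and apoptosis regulators, 3 fell (12.5%) and 1 rose (4.17%), against 7.71% and 6.14% over all genes. The list had 12 positive and 12 negative values, from -0.90 to 0.77 (median 0.02), so it did not fall as a whole. Cdkn1a differed by -0.06 ± 0.23 (adjusted p = 0.901). The death receptor Fas fell by 0.82 ± 0.08 (adjusted p = 0.00177) and the BH3-only gene Bbc3, which encodes PUMA, by 0.90 ± 0.10 (adjusted p = 0.00221). Of 21 interferon response and antigen presentation genes, 1 fell, Oas1a, by 0.65 ± 0.12, a call that ended without CHIR99021 line 2 (adjusted p = 0.0515). Of 16 histone deacetylases and sirtuins, 1 fell, Hdac5, by 0.64 ± 0.09 (adjusted p = 0.00482), and 0 rose. Its 4 paired differences lay between -0.54 and -0.73. In the interferon and deacetylase lists the share that fell, 4.76% and 6.25%, lay below the 7.71% of all genes.

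The remaining lists had few calls. Of 14 fetal-like and YAP-responsive genes, 1 rose (7.14%, against 6.14% over all genes) and 0 fell although 13 had positive values (median 0.42). The medians were 0.15 and -0.01 with VPA and 1.18 and 0.63 without it. Ly6a, a surface protein of regenerating epithelium, differed by 1.38 ± 0.42 (adjusted p = 0.07) and Anxa1, an annexin, by 1.37 ± 0.45 (adjusted p = 0.0839), with Anxa1 differences of 0.89 and 0.09 with VPA and 3.05 and 1.46 without it. Of 26 sterol and fatty acid synthesis genes, 3 rose (11.5%) and 1 fell (3.85%), against 6.14% and 7.71% over all genes. Among the risers were Acly, the ATP citrate lyase, at 0.50 ± 0.09, and the sterol regulator Srebf2 at 0.44 ± 0.11. The Srebf2 call was lost without any 1 of 6 arrays (highest adjusted p = 0.108), and a second probe read 0.04. Of 15 keratins and claudins, 1 rose (6.67%) and 3 fell (20%). Krt19 fell by 0.42 ± 0.11 (lost without any 1 of 7 arrays, highest adjusted p = 0.127), and Krt8 differed by -0.46 ± 0.13 (adjusted p = 0.053). The lists of 8 microfold cell genes (2 rose, 1 fell), 11 EGF family genes (1 rose, 1 fell) and 11 secretory progenitor genes (0 rose, 2 fell) had shares between 18.2% and 37.5% called, against 13.9% of all genes, on few members each.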

How the data were processed

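RNA of 8 organoid samples was measured on two-colour Agilent whole mouse genome arrays. Per the file headers, spots were read with Agilent Feature Extraction 10.5.1.1. The deposited intensity values are linear median pixel values of each spot and its surroundings in Cy5 and Cy3. The deposited log10 ratio, per the file headers, sets Cy5 over Cy3 after the software's own background subtraction and dye normalisation. The authors' series table holds log2 values for 19228 spots; they equalled the log2 of that ratio, so direction and scale are settled and no further centring was applied. Its column medians were -0.0080 and -0.0027 (CHIR99021+VPA, lines 1 and 2), 0.017 and 0.036 (CHIR99021), -0.028 and -0.024 (VPA) and 0.0039 and 0.0057 (control). Other deposited columns are flags of 0 or 1, a score per spot. The authors' gene calling is not described in the sources used here.

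Background was corrected with limma 3.58.1 (R 4.3.3) by normexp (offset 50), fitted without spots marked as outliers, since on the CHIR99021 array of line 1 the fit on all spots put the noise SD at 905 in Cy3, against 1.02. Loess normalisation within arrays followed, with control spots at weight 0. Marked spots were left out (104 to 209 per array). Spots of a probe were averaged and the brightest probe stood for its gene; of 41174 probes, 27479 were named through accessions in a RefSeq table of GRCm38.p6, used for names and promoter windows only, since the file headers name another build. The filter asked for signal well above background in the Cy5 channel in both lines of 1 or more conditions, and 79 genes with a marked spot were dropped, leaving 19255, of which 13972 had a symbol. Ratios were fitted with CHIR99021, VPA state and line (lmFit, eBayes; 4 residual and 3.62 prior degrees of freedom), with Benjamini-Hochberg adjustment over all genes and a threshold of 0.05. The line pairs the arrays, per the labels, and is also the slide; deviations from the group means correlated between arrays of the same line (r from 0.122 to 0.755). Alternatives changed the block, background, normalisation, filter, probe choice and arrays used.

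On simulated data with 50 genes changed per size, the same fit recovered 82% of changes of 0.5 log2 units and 98% of changes of 1, and 9 of 199 calls were on unchanged genes. The simulated errors were normal, independent between arrays, and took their variance from the fit itself. These shares therefore check the code and do not measure the error of the calls above. The text draws its names from 20 fixed markers, from the top 14 rises and top 14 falls with 4 differences of 1 sign (no accessions, clone names or predicted loci), and from the 4 lowest adjusted p-values in each list, and does not use all of them. Slc3a1 is named for its promoter, chosen after the search. Slc3a1 and the fixed markers Hes1 and Cdkn1a were not among the 120 named genes followed under the alternatives. Motifs, promoters, members and the 39 gene lists were chosen with earlier results of these data known.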

Additional observations from a re-analysis of the deposited data

Results flagged for a closer look

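Lyz1, the Paneth cell lysozyme, was singled out from the named genes because its paired differences had opposite signs with and without VPA. As that choice used the same values, the unadjusted p below is not an independent test. Both pairs with VPA were negative (-1.41 and -0.02 in lines 1 and 2) and both without VPA were positive (0.93 and 0.82). The interaction, the effect with VPA minus the effect without it, was -1.59 ± 0.43 (SE; unadjusted p = 0.00904 by limma's moderated test), but it did not pass after Benjamini-Hochberg adjustment over 19255 genes (adjusted p = 1.0). The pair of line 2 with VPA lay near 0, so the negative effect with VPA rested mainly on line 1. In the pair of line 1 with VPA the median of the 19 tested Paneth cell genes was -1.40, against -0.12 in line 2 with VPA. Line and slide coincide and cannot be told apart.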

How the results depend on the processing

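The CHIR99021 call count of 2667 (1182 rose, 1485 fell) was 1428 (517 rose, 911 fell) with no replicate block, that is without the organoid line in the fit. It was 809 (311 rose, 498 fell) with the background model fitted on all spots. For the effect within a VPA state it was 613 (114 rose, 499 fell) with VPA and 557 (78 rose, 479 fell) without. Both of these effects came from a fit of all 8 arrays, but each compares only the arrays of its own VPA state. The cause of the changes was not tested. Leaving out 1 array gave 1037 to 2297 calls, 299 to 953 rises and 718 to 1344 falls, and 0 or 1 interaction calls (1 without CHIR99021+VPA line 2). Under the other alternatives, namely the interaction term, the scanner's own ratio, median centring, Cy5 alone, both filters, the mean of probes, a variance trend, outlier spots kept, the authors' series table and, chosen after seeing the data, spots with an outlying local background left out, counts lay between 1801 and 3051. The share of rises, 44.3%, was 42.5% to 53.6% under the scalings, the highest with the authors' table (1634 rose, 1417 fell), and 27.7% to 41.6% when 1 array was left out. Of the 120 named genes followed, 42 kept their direction and their side of the threshold throughout. Reversals were limited to Axin2 (-0.069 in Cy5 alone), Sp5 (-0.15 on the arrays with VPA, -0.044 to 0.67 when 1 array was left out, lowest without control line 1) and Lyz1 (-0.72 on the arrays with VPA, -0.014 with the scanner's ratio and -0.014 with the authors' table, and -0.18 to 0.50 when 1 array was left out, below 0 without either control or either CHIR99021 array); their cause was not tested. The number of arrays, 8 from 2 lines, limits the precision, and dim probes, above background on few arrays, are the least certain.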

Other observations

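The VPA coefficient of the same fit gives a further description of the genes that CHIR99021 moved; both coefficients use the same control arrays, so they are set side by side without a test of their overlap. Among absorptive genes that fell with CHIR99021, the aminopeptidase Enpep had a VPA effect of 1.05 (adjusted p = 0.00291) beside a CHIR99021 effect of -2.10. The acyltransferase Dgat2 had 0.83 (adjusted p = 0.000151) beside -0.88, and the thiolase Acaa2 0.84 (adjusted p = 0.000418) beside -0.86. The severing protein Scin, which was not on a list of absorptive genes, had 1.05 (adjusted p = 0.00104) beside -3.02. For these genes both compounds moved the level in opposite directions. Other absorptive genes did not share this: Slc6a19 had a VPA effect of -1.14 (adjusted p = 0.00162) beside -2.55, Treh one of -0.82 (adjusted p = 0.000656) beside -1.61, and Alpi one of 0.0065 (adjusted p = 0.974) beside -1.69. The median VPA effect of the 33 brush border genes was -0.048. For 3 secretory genes the signs were alike: Ccl6 had a VPA effect of -2.64 (adjusted p = 0.000179) beside a CHIR99021 effect of -2.27, Fcgbp -1.31 beside -1.08, and Mptx1 -2.86 beside -2.46. For the Paneth list members Nupr1 and Cd24a they were opposite, with VPA effects of -1.12 (adjusted p = 0.00050) and -0.81 (adjusted p = 0.00109) beside 0.70 and 0.44.

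Genes that rose with CHIR99021 also differed in this respect. The lectin Lgals1 had a VPA effect of 3.18 (adjusted p = 8.12e-05) beside a CHIR99021 effect of 1.01, the protease Ctsl 1.65 beside 0.91, and Ass1 1.55 beside 1.11. The nucleolar genes Npm1 and Ncl had VPA effects of -0.72 (adjusted p = 0.00019) and -0.48 (adjusted p = 0.00149), opposite in sign to their CHIR99021 effects of 0.60 and 0.45. The surface gene Ly6d had -1.15 (adjusted p = 0.00356) beside 1.03. The adjusted p-values are those of limma with Benjamini-Hochberg adjustment, and the genes were chosen after their values were seen.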
